A study of Homo sapiens with 4 samples.

Results

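The 707 LTR12C loci described here were chosen for levels within 4-fold of each other in 2 treated human cancer cell lines. The treatment combined inhibition of DNA methyltransferases and of histone deacetylases. LTR12C is a family of long terminal repeats (LTR) left in the genome by the endogenous retrovirus ERV9. Such a repeat holds the promoter of the former virus, and most copies are solitary, with no viral genes beside them. In somatic cells these promoters are kept silent by DNA methylation and repressive chromatin, and they carry sites for the transcription factor NF-Y. Inhibitors of histone deacetylases and of DNA methyltransferases are known to release them, and some copies then act as start sites for neighbouring genes.

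H1299 is a non-small cell lung cancer line and HCT116 a colorectal cancer line. Each line was given the solvent DMSO, or DAC (decitabine, an inhibitor of DNA methyltransferases, at 500 nM for 72 h) together with SB939 (an inhibitor of histone deacetylases, at 500 nM for 18 h), in medium renewed every 24 h. Single cells at passage 5 to 10 were sequenced from the 5′ end of polyadenylated RNA, so counts lie near transcription start sites. There were 4 libraries, 1 for each line under each treatment. Without replicates no test between conditions was possible within a line, and none across the lines was run. Intervals below are 95% intervals that cover counting error only. The treated libraries are called DAC+SB.

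A locus was included when it had 100 or more counts in at least 1 DAC+SB library and its level in H1299 lay between 0.25 and 4 times its level in HCT116, with 1 added to each count. Levels are in CPM, counts per 1000000 of all gene and transposable element (TE) counts of the library. Of 261609 TE loci in the files, 2350 were LTR12C and 1106 of these reached the count minimum. The ratio limits kept 707, while 66 loci were higher in H1299 and 333 higher in HCT116, and 1244 LTR12C loci stayed below the minimum. The loci were thus chosen by their counts in the treated libraries and by the ratio of these between the lines, which are given as description. The DMSO counts and the spread over cells were not used in the choice. The files give a locus number and no genome position, so the loci were not placed in the genome and no sequence of theirs is shown.

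The libraries held between 3578 and 4327 cells and between 38927267 and 64524196 counts, and the treated HCT116 library was the shallowest, with a median of 8449 counts per cell against 15784.5 to 17369.5 in the others. Of 15158 cell barcodes, 131 occurred in 2 libraries and 0 in more. Of the genes chosen as H1299 markers, VIM (vimentin, a mesenchymal filament protein) stood at 2282 CPM with DMSO and 1151 CPM with DAC+SB in H1299, against 47.0 and 265 CPM in HCT116. EPCAM (an epithelial adhesion protein) stood at 80.7 and 45.2 CPM in HCT116 DMSO and DAC+SB and at 0.0155 and 4.47 CPM in H1299. The other HCT116 markers did not all separate the treated lines. With DAC+SB, ESRP1, LGALS4 and CDH17 stood at 2.92, 1.60 and 0.529 CPM in H1299 against 2.41, 1.08 and 0.385 CPM in HCT116. CDH1, ELF3, CLDN4 and VIL1 were higher in treated HCT116. The 6 H1299 markers summed to 2689 and 1308 CPM in H1299 against 175 and 362 CPM in HCT116, DMSO first. The sources do not say whether counting used the strand. Of the HCT116 markers 2 were at 0 counts in H1299 DMSO (CDH1 and CDH17) and 1 in HCT116 DMSO (CDH17), and CDH2 was at 0 in HCT116 DMSO.

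Summed over the 707 loci, the level went from 45.7 CPM (44.1 to 47.4) in H1299 DMSO to 14280 CPM (14250 to 14310) in H1299 DAC+SB. In HCT116 it went from 199 CPM (196 to 203) to 16094 CPM (16054 to 16134). Similar sums in the treated lines follow from the choice of loci, while the DMSO counts were not used in it. Per TE count or per LTR12C count the treated sum was higher in H1299 and not in HCT116, with log2 ratios of H1299 to HCT116 of 0.67 and 0.33 against -0.17 per gene and TE count. The ratio of DAC+SB to DMSO was 312 (301 to 324) in H1299 and 80.9 (79.4 to 82.3) in HCT116. Behind these values stood 2950 and 891477 counts for H1299, DMSO first, and 12467 and 626488 for HCT116. The 3 loci with most DMSO counts in a line weighed on these sums, and without them the ratios were 485 (463 to 507) in H1299 and 181 (176 to 186) in HCT116.

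The shared loci made up most LTR12C counts of the treated libraries, with 77.1% (77.1 to 77.2) in H1299 and 61.3% (61.2 to 61.4) in HCT116. With ratio limits of 0.5 and 2 the shares were 53.0% and 36.1%, so in HCT116 the majority rests on the wider limits. They also held 46.2% and 28.9% of all TE counts there. These treated shares follow in part from the choice of loci. With DMSO, which the choice did not use, they held 24.6% (23.8 to 25.3) of LTR12C counts in H1299 and 63.4% (62.7 to 64.1) in HCT116. Of the remaining 9060 H1299 DMSO counts, 8362 lay in the 66 loci that were higher in treated H1299. In those 66 loci the ratio of DAC+SB to DMSO was 21.1 (20.6 to 21.5) in H1299, and 3 of them, loci 3147924, 4518405 and 5943301, had 3398, 2054 and 1269 of the H1299 DMSO counts. Without these 3 the ratio was 96.9 (92.3 to 102). The 333 loci higher in HCT116 had a ratio of 80.6 (78.7 to 82.6) in HCT116. A single one of them, locus 1700968, held 4266 of their 6905 HCT116 DMSO counts, and without it the ratio was 174 (167 to 181).

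**Figure D1:**
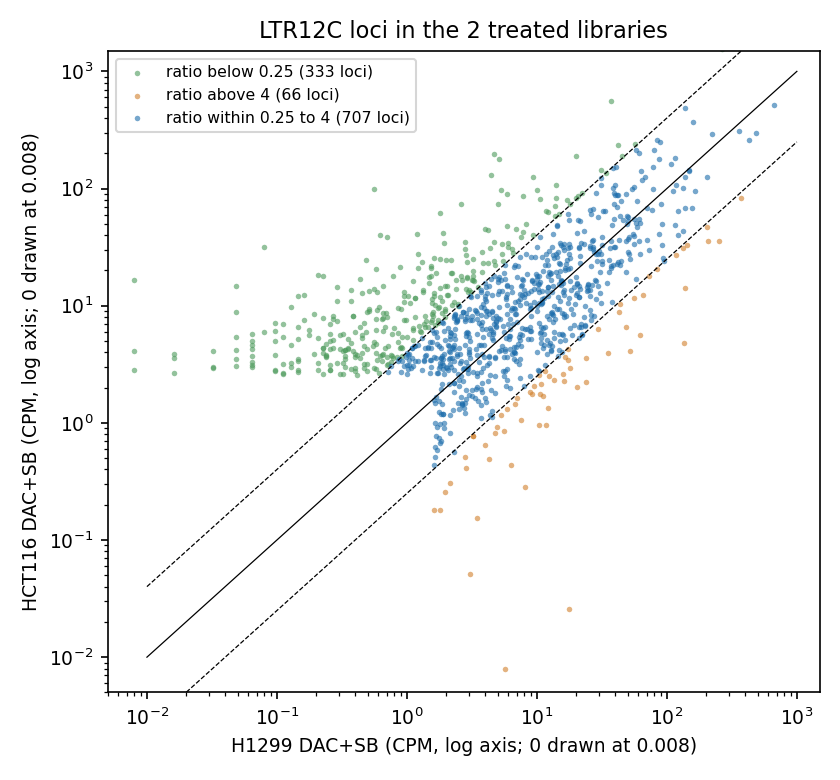
Level of each of the 1106 LTR12C loci past the count minimum in the H1299 DAC+SB library (x, CPM, log axis) and the HCT116 DAC+SB library (y, CPM, log axis); a level of 0 is drawn at 0.008. The solid line marks equal levels and the broken lines a ratio of 0.25 or 4, which set apart the 707 shared loci from the 66 and 333 loci outside.

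Within the limits the loci were spread across the whole window. Levels within 2-fold of each other were found at 421 loci, and within 1.5-fold at 230. More than 2-fold higher in H1299 were 102 loci and more than 2-fold higher in HCT116 were 184. The median log2 ratio of H1299 to HCT116 was -0.24. This direction turned with the denominator, since the same loci had a median of 0.61 per TE count, with 273 loci more than 2-fold higher in H1299 and 32 in HCT116, and of 0.26 per LTR12C count, with 210 and 91. The limits cut a continuous cloud, as the loci next to them show. Among loci with 1000 or more counts in a treated library, 2546730 and 254862 lay just inside the upper limit at ratios of 3.98 and 3.95, and 6310400 and 4518405 just outside at 4.02 and 4.06. Loci 4931279 and 4987473 lay just inside the lower limit at 0.252 and 0.258, and 2517639 and 1489797 just outside at 0.249 and 0.244. At the count minimum, loci 5000894 and 5043695 had 100 counts in H1299 DAC+SB, while 3823325 and 1259904 missed it with highest treated counts of 99 and 98.

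Treated levels covered a wide range. In H1299 DAC+SB the lowest, median and highest locus had 45, 465 and 41811 counts, or 0.721, 7.45 and 670 CPM. In HCT116 DAC+SB they had 17, 323 and 20055 counts, or 0.437, 8.30 and 515 CPM. The signal was spread over many copies, since the 10 highest loci held 21.0% of the shared loci's counts in H1299 and 20.3% in HCT116, and 59 and 54 loci were needed to reach 50% of them. At least 100 counts in both treated libraries were found at 587 of the 707 loci. The position number, the middle field of the feature name, which no label explains, was 59 for the most counted feature of all these 587 loci in either treated library. This was all but set in advance. In H1299 DAC+SB no LTR12C count had another position number, and in HCT116 DAC+SB 830 of 1022532 did. Position 58 was listed in H1299 DMSO alone, with 72 counts of the shared loci, and position 50 in HCT116 DAC+SB alone, with 66.

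The 12 loci with the highest level in the lower of their treated libraries were 6056768, 4421287, 4128679, 5849997, 331186, 1024113, 3829273, 5075227, 5093379, 6265695, 4136494 and 1603618. Locus 6056768 led in both lines, with 670 CPM (663 to 676) in H1299 DAC+SB and 515 CPM (508 to 522) in HCT116 DAC+SB. In H1299 it went from 2 counts with DMSO to 41811 with DAC+SB, and in HCT116 from 20 to 20055. This copy had few counts before treatment in either line and then exceeded every other shared locus. Its ratios were 21607 (5981 to 178424) in H1299, from 2 DMSO counts, and 1614 (1044 to 2642) in HCT116. For locus 5849997 the H1299 counts were 0 with DMSO and 26951 with DAC+SB, and the HCT116 counts 22 and 10160. It was at least 9285-fold higher in H1299 against a floor of 3 counts in the DMSO library, and 743-fold (491 to 1186) higher in HCT116.

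Loci 4421287 and 4128679 also had few counts with DMSO beside their treated counts in both lines. In HCT116 DMSO both exceeded the third quartile of the shared loci, which was 3 counts. Locus 4421287 had 4 and 22245 counts in H1299 and 59 and 12069 in HCT116, DMSO first. Locus 4128679 had 8 and 30222 counts in H1299 and 17 and 11568 in HCT116. Their H1299 ratios were 5748 (2245 to 21098) and 3905 (1981 to 9045), and their HCT116 ratios 329 (255 to 433) and 1095 (684 to 1880). Locus 1024113 stood higher in HCT116, with treated levels of 160 and 370 CPM in H1299 and HCT116, from 10 and 73 DMSO counts. Per gene and TE count, loci 3829273, 5075227 and 6265695 were nearly equal in the treated lines, with H1299 to HCT116 ratios of 1.02, 1.04 and 1.09. This equality depends on the denominator, since per TE count the median log2 ratio of the shared loci was 0.61 and not -0.24. Loci 4136494 and 1603618 had 3 and 1 counts in H1299 DMSO and 14 and 10 in HCT116 DMSO, against 12802 and 7273 once H1299 was treated and 4866 and 7039 once HCT116 was.

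All 12 had more CPM in HCT116 DMSO than in H1299 DMSO, while 8 of the 12 were higher in H1299 after treatment. The second count turned with the denominator, to 6 without mitochondrial and ribosomal protein genes, where loci 3829273 and 5075227 changed sides, to 10 per TE count and to 9 per LTR12C count. The first was 11 of 12 with the libraries thinned to equal depth. Over all 707 shared loci, 335 were higher in HCT116 DMSO and 76 in H1299 DMSO, with 296 at 0 in both. With DAC+SB 309 of the 707 were higher in H1299 and 398 in HCT116, by the ratio that the choice limited. Part of the HCT116 DMSO counts came from a single cell. That cell had counts at 123 of the 707 loci, 504 counts in all and 4.04% of the library's counts at these loci, while the next cells had 26 and 22 loci and the highest H1299 DMSO cell had 10. Its TE share was 4.76%, its mitochondrial share 4.88% and its depth 50287 counts, at the percentile of 99.9 of that library's cells. It had 0 VIM and 14 EPCAM counts, and its barcode also occurred in another library. Without that cell all 12 loci were still higher in HCT116 DMSO than in H1299 DMSO. At 4128679 this rested on 9 against 8 counts and at 4136494 on 4 against 3, differences within counting error. The counts of 5849997 in HCT116 DMSO went from 22 to 5, which moved its ratio from 743 to 3267 (1400 to 10064), and those of 4136494 from 14 to 4, which moved its ratio from 559 to 1956 (763 to 7182). For 6056768, 11 of 20 counts remained and the ratio was 2931 (1638 to 5873), and for 4128679 it was 2067 (1088 to 4521) from 9 counts. The summed log2 ratio of the 707 loci in HCT116 moved from 6.34 to 6.40.

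**Figure D2:**
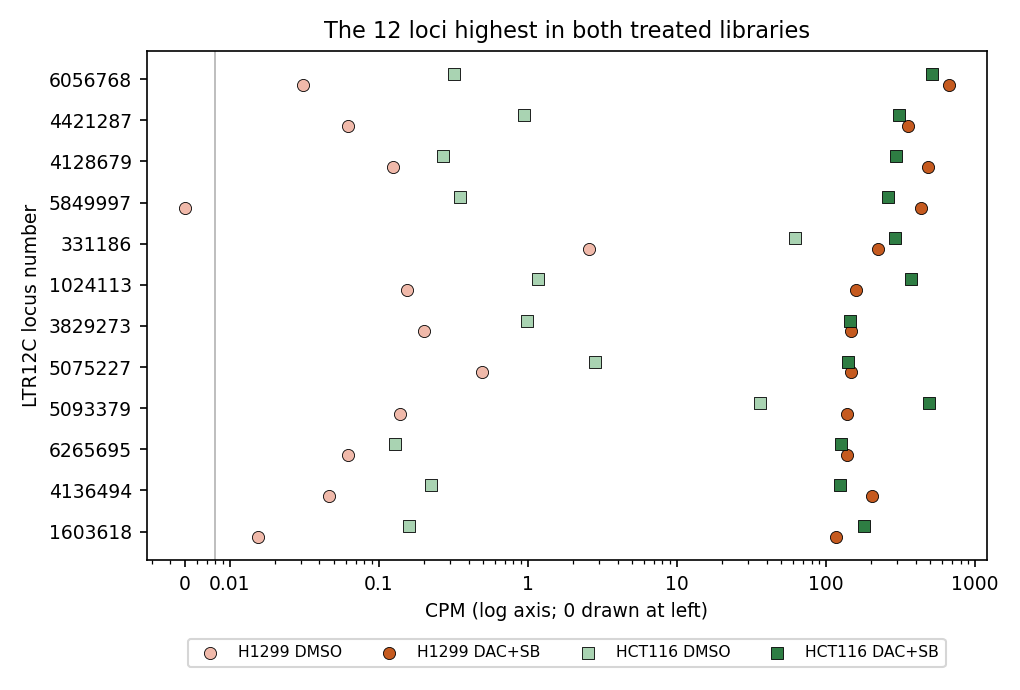
Level (x, CPM, log axis, with 0 drawn at the left of the grey line) of the 12 shared loci with the highest level in the lower of their treated libraries (y), as 1 point for each of the 4 libraries, circles for H1299 and squares for HCT116. The treated levels (dark) lie between 117 and 670 CPM, while the DMSO levels (pale) lie below 3 CPM except for loci 331186 and 5093379 in HCT116.

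Of the 707 loci, 704 in H1299 and 705 in HCT116 were at least 4-fold higher with DAC+SB than with DMSO, with loci at 0 DMSO counts set to 3, and 0 were lower in either line. Among all LTR12C loci with 100 or more counts in a library of the line, 99.0% were at least 4-fold higher in H1299 and 99.7% in HCT116. Among TE loci of the classes listed in both libraries of the line, with the same minimum, the shares were 90.7% and 94.2%. A high treated count was a condition of the choice, so nothing is read from these counts. The median log2 ratio was 8.44 in H1299 and 8.00 in HCT116 with 1 added, and 7.32 and 7.43 with loci at 0 DMSO counts set to the floor of 3.

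The choice did not use the DMSO counts, but it could still shape them. Across the shared loci DMSO and treated counts had Spearman correlations of 0.294 in H1299 and 0.540 in HCT116. The ratio limits also left out loci such as 3147924, with 3398 DMSO counts in H1299 and 0 in HCT116. In H1299 DMSO 524 of the 707 loci had 0 counts, and in HCT116 DMSO 345. A count of 0 allows up to 0.0465 CPM in H1299 DMSO and 0.0479 CPM in HCT116 DMSO, and these libraries were of similar depth. More loci with a DMSO count in HCT116 than in H1299 were also found outside the shared loci. A DMSO count was found at 25.9% of them in H1299 and 51.2% in HCT116, at 13.2% and 52.3% of the loci higher in HCT116, at 4.90% and 11.7% of those below the minimum, and at 13.3% and 29.8% of all 2350 LTR12C loci. The loci higher in H1299 had 37.9% and 30.3%. Both DMSO libraries had 0 counts at 296 of the shared loci. A DMSO count was found in both lines at 134 loci, in H1299 alone at 49 and in HCT116 alone at 228. These joint counts were not made over all 2350 LTR12C loci, so nothing is read from them. Without the single HCT116 cell, 380 loci had 0 counts in HCT116 DMSO. With all cells 335 loci had the higher level in HCT116 DMSO and 76 in H1299 DMSO. The ranks of the loci in the DMSO libraries of the lines had a Spearman correlation of 0.356 across the 707 loci, which share libraries and have many ties at 0, so it is a description.

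The DMSO signal lay in few loci. The 3 highest loci held 36.1% of the shared loci's counts in H1299 DMSO and 57.5% in HCT116 DMSO, against 11.1% and 8.55% with DAC+SB. Of the 10 highest loci, 2 were shared between the DMSO libraries and 6 between the treated libraries, and of the 100 highest, 43 and 76. The limits on the treated ratio favour the second of these overlaps. In H1299 DMSO 66 of the shared loci had more than 3 counts. Part of its 100 highest thus rested on 1 to 3 counts, with ties ordered by locus number. How far this lowered the overlap of 43 was not tested. Within a line, 1 of the 10 highest loci in H1299 DMSO and 3 of those in HCT116 DMSO were among the 10 highest after treatment.

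**Figure D3:**
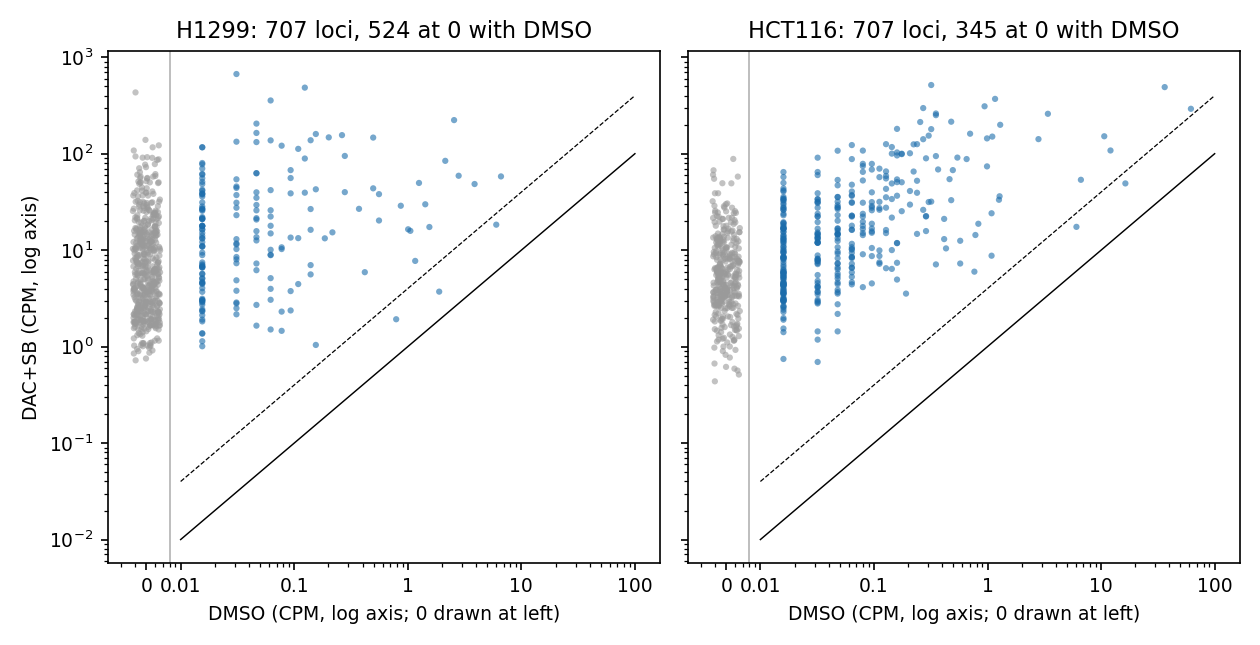
Level of each of the 707 shared loci with DMSO (x, CPM, log axis) and with DAC+SB (y, CPM, log axis) in H1299 (left) and HCT116 (right); grey points left of the grey line have 0 DMSO counts and are spread sideways to be seen, the solid line marks equal levels and the broken line a 4-fold higher treated level. In H1299 524 loci and in HCT116 345 loci had 0 DMSO counts.

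The loci with most DMSO counts in H1299 were 1377686, 4298162 and 1002616, and each had 18 or fewer counts in HCT116 DMSO. Locus 1377686 had 427 DMSO and 3630 DAC+SB counts in H1299, and 1 and 655 in HCT116. Its ratio of DAC+SB to DMSO was 8.79 (7.95 to 9.74) in H1299 and 1054 (189 to 41693), from 1 DMSO count, in HCT116. Its treated levels were 58.1 and 16.8 CPM, within the 4-fold window that the choice required. Locus 4298162 had 388, 1147, 0 and 362 counts in the same order, a ratio of 3.06 (2.72 to 3.44) in H1299 and at least 194 in HCT116. Locus 1002616 had 250, 3027, 18 and 3486 counts, and ratios of 12.5 (11.0 to 14.3) and 312 (197 to 526). It was higher in HCT116 than in H1299 after treatment, at 89.6 against 48.5 CPM, although it had been higher in H1299 with DMSO.

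In HCT116 the loci with most DMSO counts were 331186, 5093379 and 5062231. Locus 331186 had 165 DMSO and 13923 DAC+SB counts in H1299, and 3871 and 11370 in HCT116. Its DMSO level was 2.56 CPM in H1299 and 61.8 CPM in HCT116, while its treated levels were 223 and 292 CPM. The ratios were 87.2 (74.8 to 102) and 4.73 (4.56 to 4.90). Locus 5093379 had 9, 8606, 2275 and 19081 counts, and ratios of 988 (520 to 2162) and 13.5 (12.9 to 14.1). Locus 5062231 had 36, 2377, 1025 and 1915 counts, and ratios of 68.2 (49.2 to 97.7) and 3.01 (2.79 to 3.25). At each of these 3 loci, and at the 3 from H1299, the line that was higher with DMSO had to show the smaller ratio, because the treated levels were held within 4-fold.

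Of the 707 loci, 15 had 100 or more DMSO counts in a line and 2 had them in both. Those 2, chosen for mention after their values were seen, were 331186 and 5743386. Locus 5743386 had 138 counts in H1299 DMSO and 213 in HCT116 DMSO, and 5265 and 10091 with DAC+SB, with ratios of 39.4 (33.3 to 47.0) and 76.2 (66.6 to 87.7). The remaining 13 loci passed 100 counts in 1 line. Their other line ranged from 0 counts, as at 696009 and 5062205 in H1299, to 36 counts, as at 5062231. Locus 5062205 had 668 counts in HCT116 DMSO and reached 40.6 CPM in treated H1299 and 152 CPM in treated HCT116. Locus 696009 had 416 counts in HCT116 DMSO and reached 17.5 and 53.6 CPM. A start from 0 DMSO counts in a line did not keep these loci from the treated window, which was itself the condition of the choice. Outside the shared loci, 1700968 also passed 100 DMSO counts in both lines, with 128 in H1299 and 4266 in HCT116. How many of all LTR12C loci did so was not counted, so nothing is read from the 2 shared ones.

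Under 4-fold in a line were 5 loci, and 0 were under 4-fold in both. In H1299 these were 4298162, 2304670 with 122 and 232 counts and a ratio of 1.97 (1.57 to 2.47), and 3737644 with 51 and 120 counts. In HCT116 they were 5062231 and 2762847, the latter with 380 and 679 counts and a ratio of 2.88 (2.53 to 3.27). In the other line 2304670 had 3 and 376 counts, 3737644 had 0 and 39, and 2762847 had 9 and 437. Loci 2304670, 3737644 and 2762847 were chosen for mention after their values were seen.

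The 296 loci with 0 DMSO counts in both lines included some of substantial treated level. The 5 highest by the lower of the treated levels were 3254824, 1754507, 3652393, 4175628 and 5274511. Locus 3254824 had 3094 counts in H1299 DAC+SB and 2253 in HCT116 DAC+SB, and was at least 1066-fold higher in H1299 and at least 1208-fold higher in HCT116. Locus 1754507 had 5681 and 1924 counts, which is at least 1957-fold higher in H1299 and at least 1032-fold higher in HCT116. The other three had between 2441 and 4527 counts in H1299 and between 1164 and 2140 in HCT116, with lower bounds between 624 and 1560. None of these 5 was counted in any of the 3578 and 3658 DMSO cells.

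Counts per cell were compared at equal depth. The shares in treated cells follow in large part from the choice, which required high treated counts, and are a description. After each cell was thinned to 3300 counts, which left out 402 shallower HCT116 DAC+SB cells and 0 of the others, 99.5% (99.3 to 99.7) of treated H1299 cells and 99.4% (99.2 to 99.6) of treated HCT116 cells had a count at 1 or more of the 707 loci. With DMSO the shares were 12.5% (11.4 to 13.6) and 35.6% (34.1 to 37.2). Unthinned they were 42.9% and 73.6% with DMSO and 99.7% and 99.8% with DAC+SB. No cell type that lacks LTR12C RNA was analysed, so how much of these shares free RNA made up is not known here. No doublets were called.

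A thinned treated cell had counts at a median of 28 of the loci in H1299 (quartiles 17 and 45) and 30 in HCT116 (quartiles 18 and 49). The lowest 5% of cells had 7 or fewer and the highest 5% had 82 or more in H1299 and 87 or more in HCT116, with 193 and 195 as the highest. Similar medians are not independent of the choice, which took loci of similar treated level in these libraries. At their own depth the medians were 88 and 56, in the order of the depth of the libraries. The 10% of thinned cells with most of these counts held 30.1% of them in H1299 and 31.5% in HCT116. Across thinned cells the counts at the shared loci and at other LTR12C loci had a Pearson correlation of 0.911 in treated H1299 and 0.921 in treated HCT116, over cells of 1 library that share its depth. With other TE counts it was 0.439 and 0.241, and with the mitochondrial share 0.007 and 0.084.

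**Figure D4:**
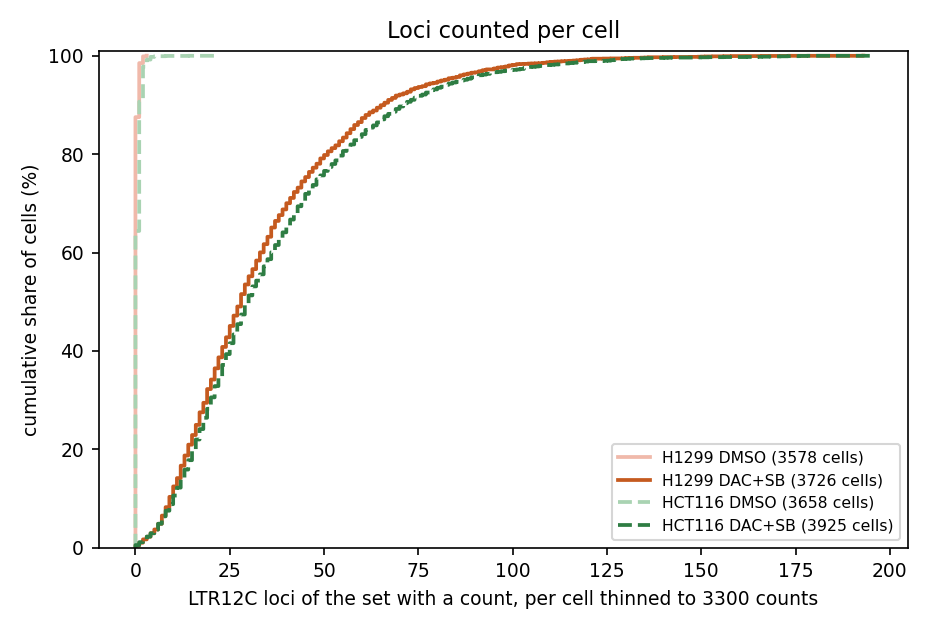
Cumulative share of cells (y, %) against the number of the 707 shared loci with a count in a cell thinned to 3300 counts (x), 1 line per library, unbroken for H1299 and broken for HCT116. The treated curves run close together with medians of 28 and 30 loci, while the median DMSO cell had 0.

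Single loci had a count in few thinned treated cells, and these shares are limited by depth. The median locus had a count in 2.25% of thinned treated H1299 cells and 2.52% of thinned treated HCT116 cells. At own depth these medians were 8.62% and 5.27%. The median treated level of a locus was 7.45 CPM in H1299 and 8.30 CPM in HCT116. At such levels most cells thinned to 3300 counts would have no count of the locus even with equal levels in all cells. Whether few cells transcribed a locus was not tested. In at least 10% of thinned cells were 88 and 91 loci, and in at least 50% of them 4 and 2. At own depth 324 and 209 loci were in at least 10% of cells, and 27 and 15 in at least 50%. Locus 6056768 was the most widespread in thinned H1299 cells, in 67.7% of them, and 5093379 in thinned HCT116 cells, in 58.2%. Locus 331186 was already seen in 12.2% of thinned HCT116 DMSO cells, the most of any shared locus with DMSO, and in 41.0% after treatment. At own depth it was in 1004 HCT116 DMSO cells. Locus 5093379 was in 9.02% of thinned HCT116 DMSO cells and in 1057 at own depth.

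The Fano factor, the variance of a locus's counts over cells divided by their mean and equal to 1 for independent molecules that fall at random, describes how uneven a locus was between cells. Whether the counts are molecules or reads is not known here, and counts of amplified reads would lie above 1 without any difference between cells, to a degree that can differ between libraries. In thinned cells its median over the 707 loci was 1.17 (quartiles 1.08 and 1.33) in treated H1299 and 1.32 (quartiles 1.19 and 1.56) in treated HCT116. It was higher in HCT116 at 566 loci and in H1299 at 141. At own depth the order of the medians turned, with 1.90 in treated H1299 and 1.78 in treated HCT116. Values above 2 were then found at 320 and 280 loci. The parts of amplification and of depth in these differences were not tested. All further values are of thinned cells unless stated. The same locus, 5849997, had the highest value in both lines, 3.17 in H1299 and 4.92 in HCT116. Values above 2 were found at 26 loci in H1299 and 63 in HCT116. Across loci the Fano factor had a Spearman correlation of 0.575 between the lines and of 0.663 and 0.633 with the mean in H1299 and HCT116. At 331186 in HCT116 the Fano factor was 2.49 with DMSO and 3.15 with DAC+SB, and at 5093379 it was 1.37 and 3.74. At own depth the single HCT116 DMSO cell described above held 77 of the 3871 counts of 331186. Its part in the DMSO value of thinned cells was not tested. Locus 6056768 had 2.89 in treated H1299 and 4.52 in treated HCT116.

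**Figure D5:**
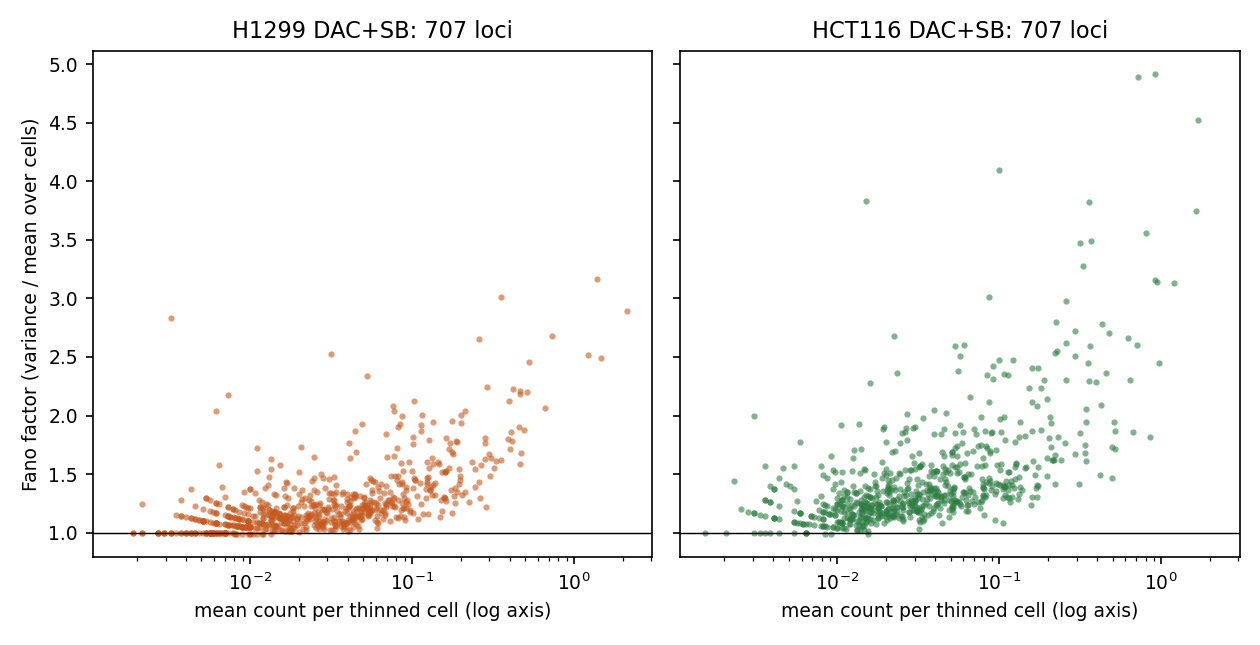
Fano factor (y) of each of the 707 shared loci against its mean count per cell thinned to 3300 counts (x, log axis) in treated H1299 (left) and treated HCT116 (right), 1 point per locus, with a line at 1. Values above 2 were found at 26 loci in H1299 and 63 in HCT116, and the highest were 3.17 and 4.92.

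Genes around these repeats were set beside the loci. NF-Y, the trimer of NFYA, NFYB and NFYC, binds the CCAAT boxes of LTR12 repeats. NFYC was lower with DAC+SB in both lines, with log2 ratios of -0.69 in H1299 and -0.80 in HCT116. NFYB had 0.21 and 0.28, and NFYA -0.17 and 1.07. Of the other factors described at such repeats, GATA2 had 0.61 and 1.32 and MZF1 had -0.38 and -0.14. With 1 library a condition these differences have no replicate check.

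Of 5 genes with a described promoter in an LTR12 repeat, all 5 had more CPM with DAC+SB in both lines. Of all genes with 10 or more counts in a library of the line, 54.9% had more in H1299 and 51.9% in HCT116, and 39.0% of those counted in both lines had more in both. The list is short and was made of genes already described at such repeats. All but TNFRSF10B had 8 or fewer DMSO counts in each line and so had little room to fall. The shares over all genes were not matched for DMSO level, so nothing is read from the 5 genes against them. TP63, a transcription factor of epithelial cells, had 2 and 1158 counts in H1299 and 1 and 143 in HCT116, DMSO first. TNFRSF10B, the death receptor DR5, had 1157 and 2896 counts and 1467 and 1940 counts, with ratios of 2.59 (2.42 to 2.77) and 2.13 (1.99 to 2.28). It was the one of the 5 with substantial counts before treatment. GBP2, an interferon-inducible guanylate-binding protein, had 2 and 250 counts in H1299, DMSO first, against 0 and 429 in HCT116. Its relative GBP5 had 8 and 112, against 2 and 231. ADH1C, an alcohol dehydrogenase, had 11 and 31 treated counts from 0 in both DMSO libraries, a rise of at least 3.79-fold in H1299 and at least 16.6-fold in HCT116. The files do not tie a locus number to a gene, so which of the 707 loci lies at any of these genes was not determined.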

How the data were processed

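RNA of single cells was counted per gene and per TE locus in 4 libraries, and the deposited files hold the authors' whole-number counts per cell. CASAVA, STAR and the builds GRCh38 and hg38 are named per the submitters' processing notes. The counting tool, annotation, cell filters and use of molecular identifiers are not stated in those notes or the labels (not given in the sources used). Counts were summed over the cells of a library, divided by its total of gene and TE counts and multiplied by 1000000 (CPM). All deposited cells were kept, so the depth per library was the range given for the libraries above. Groups were taken from the sample labels.

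Loci, gene lists and rules were chosen with earlier results of these data known. Named loci were the 12 with the highest level in the lower of their treated libraries, the 3 with most DMSO counts in each line, the 5 highest with 0 DMSO counts in both lines, and the loci next to each limit. Loci with a main position number that differed between the lines would have been named, and there were 0. With nearly all treated counts at position 59 this was all but set in advance. Ratios carry exact conditional binomial intervals, levels Poisson intervals and shares Clopper-Pearson intervals, all at 95%. Against 0 counts a floor of 3 counts per library was used. Cells were thinned without replacement with a fixed seed. The calculations were tested on simulated data. Alternatives changed the denominator, count minimum, ratio limits, added count, cells, depth and position numbers. Python 3.11.15, pandas 2.3.3, NumPy 2.4.6, SciPy 1.17.1 and matplotlib 3.10.9 were used. One gene of the HCT116 marker list, and the sum of that list, are not reported here.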

Additional observations from a re-analysis of the deposited data

How the results depend on the processing

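The DMSO and DAC+SB libraries pair by line, but no paired test across the lines was run. Each combination of line and treatment is 1 library with no replicate number. For the same reason no replicate could be left out, and intervals cover counting error only. The number of shared loci was 707 and fell to 421 with ratio limits of 0.5 and 2. It was 870 and 558 with minimums of 50 and 200 counts, 674 at equal library depth, 745 per TE count and 746 per LTR12C count. The other alternatives gave between 684 and 726. The shared loci held 77.1% of LTR12C counts in treated H1299. This share was 71.0% per TE count, 74.1% per LTR12C count, 78.6% without mitochondrial and ribosomal protein genes and 76.4% without cells above 25% mitochondrial counts. It was 76.8% at equal library depth, 77.9% and 75.6% with minimums of 50 and 200 counts, 53.0% with limits of 0.5 and 2, and 77.6% with 10 added. In treated HCT116 the share, 61.3%, was in the same order 76.0%, 69.4%, 59.9%, 62.2%, 60.9%, 62.2%, 59.6%, 36.1% and 61.5%, and 60.9% without the 5% deepest cells. The summed log2 ratio in HCT116, 6.34, was 6.39 without the 5% deepest cells, 6.26 without cells above 25% mitochondrial counts, 6.45 as a mean over cells and, in an alternative added after seeing the data, 6.40 without the single HCT116 DMSO cell. The median log2 ratio per locus in H1299, 8.44, was 7.82 at equal depth, 9.25 with 0.5 added and 5.45 with 10 added. In HCT116 the median, 8.00, was 7.54, 8.70 and 5.45, and 7.78 without cells above 25% mitochondrial counts. The median share of cells per locus at own depth was 8.62% in H1299 and 5.27% in HCT116. The median number of loci per cell was 88 and 56 at own depth, and 28 in HCT116 when thinned without cells above 25% mitochondrial counts. Of 330 alternative values for 33 named loci, 273 stayed within their counting interval, 57 moved beyond it and 0 values past 4-fold changed direction. Among smaller values the log2 ratio of treated H1299 to HCT116 changed sign 4 times: without mitochondrial and ribosomal protein genes at 3829273 (0.04 to -0.07), 5075227 (0.05 to -0.05) and 5043695 (0.03 to -0.07), and without the 5% deepest cells at 5043695 (to -0.003). The median of that ratio over the shared loci, -0.24, ran from -0.34 to 0.61 over the denominators. Among the values of these 33 loci the largest move was 2.17 on the log2 scale, for locus 1489797 in HCT116 without the single cell. Apart from the narrower limits and the added counts, which act by construction, the cause of these moves was not tested. DMSO counts limit the ratios: 117 shared loci in H1299 and 202 in HCT116 had 1 to 3 DMSO counts.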

Other observations

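What the locus numbers stand for is not stated in the files. Among the shared loci 36 pairs had numbers within 100 of each other, and 6 of them within 10. In these pairs the log2 ratio of treated H1299 to HCT116 differed by a median of 0.77, against 1.06 over all pairs of shared loci. The choice of loci limited this ratio, so both values are a description.

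Counts of some shared loci were concentrated in few cells. Given here, by a rule made after the values were seen, are the loci with the 2 highest Fano factors in each treated library among those under a mean of 0.2 counts per thinned cell. In treated HCT116 thinned to 3300 counts per cell, locus 1578696 had 59 counts in 37 cells with up to 12 in a cell and a Fano factor of 3.83, and locus 5245595 had 391 counts in 224 cells with up to 25 in a cell and a Fano factor of 4.10. In thinned treated H1299, locus 716797 had 12 counts in 7 cells with up to 5 in a cell and a Fano factor of 2.83, which rests on few counts, and locus 1713105 had 117 counts in 84 cells with up to 12 in a cell and a Fano factor of 2.52.

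At their own depth 10 treated H1299 cells and 9 treated HCT116 cells had no count at any of the 707 loci. Their median depth was 10936.5 and 3503 counts, below the 15800.5 and 8475.5 of the other cells of their libraries. Their median mitochondrial share was 7.59% and 9.44%, against 8.87% and 18.7% in those other cells.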
